A study of Drosophila melanogaster with 56 samples.

Results

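The mitochondrial genome supplied 37 of the 17490 genes counted in RNA from whole *Drosophila melanogaster*. These genes were found by their symbols, which begin with mt:, a rule that uses no measured value. They were 13 mRNA genes, 2 rRNA genes and 22 tRNA genes, all placed on the mitochondrial chromosome of the release 6.13 annotation. The study asked what the 4 paralogs of the *Obp50a–d* cluster, which encode odorant-binding proteins, do alone and together, and its 56 libraries were made from pools of 30 mated flies of 1 sex. Every line carried the Canton S (B) background with the native cluster cut out by CRISPR/Cas9 and a version of it put back at the same place by PhiC31 integrase. In Obp50Pos all 4 reinserted paralogs were intact. In Obp50a, Obp50b, Obp50c and Obp50d the paralog of that name was the functional one. Obp50NegBCD carried a missense form of *Obp50b* beside stop codons in the other paralogs, and Obp50cBCD carried that form together with functional *Obp50c*. In Obp50Neg, the control for these genotypes, all 4 paralogs held stop codons. Of each genotype 2 lines were sampled with 2 pools per line and sex. Obp50Pos and Obp50d are the exceptions, with 1 line each, so that for them genotype and line cannot be told apart. The study left out 2 female libraries, J2_S52 (Obp50Pos) and 55_S45 (Obp50cBCD), and the tests used the other 54 (26 female, 28 male), which leaves 1 female Obp50Pos library. Libraries are called here by the names in their titles.

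Mitochondrial DNA of the fly is a small circle that is inherited from the mother and present in many copies per cell. Its mRNAs encode core subunits of 4 machines of the inner membrane: complex I (the ND genes), complex III (Cyt-b), complex IV (CoI, CoII and CoIII) and ATP synthase (ATPase6 and ATPase8), while all subunits of complex II are nuclear. Its rRNAs (lrRNA and srRNA) and tRNAs serve the ribosomes inside the organelle. Both strands are transcribed into long precursors, and tRNAs cut out from between the coding regions release most mRNAs and rRNAs. Proteins that copy the DNA, transcribe it and process or degrade its RNA are all encoded in the nucleus. Whole flies mix tissues of very different mitochondrial content, such as flight muscle, fat body and gonads. In such bulk RNA fewer mitochondria-rich cells and less mitochondrial RNA per cell cannot be told apart.

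Libraries held between 14638498 and 53517693 counts. The marker lists matched the labelled sexes. Female markers (12 yolk protein and eggshell genes) took 1.07% to 6.06% of counts in female libraries and 0.00187% to 0.360% in male libraries, and male markers (16 genes of the accessory gland and testis) 0.000322% to 0.00959% in female and 0.384% to 0.885% in male libraries. All 12 female markers were counted in every female library and 14 of the 16 male markers in every male library. There were 6 male libraries with over 0.1% on the female list: 49_S29, 24_S41, 59_S21, 61_S22, 36_S28 and J1_S51. Flight muscle markers (12 genes) took 0.428% to 0.766% of counts in females and 1.01% to 1.89% in males. By the paths in the file headers, the libraries came in 3 sets: a first of 39, a second of 14 and a repeated set of 3. All female Obp50a and both male Obp50Pos libraries were in the second set, and all Obp50Neg, Obp50NegBCD and Obp50c libraries in the first. The genotype labels could not be checked from the cluster itself, since the versions differ by small changes: *Obp50b* had 0 counts in all 54 libraries, and *Obp50c* had 148 to 606 counts in males of every genotype. The male libraries J3_S53 and 35_S27 stood apart by their low mitochondrial shares, and results are also given without them. Nothing in the labels says that pools came from separate cultures, so the spread between pools may in part be technical. The main fit had 1 mean per sex and genotype and no term for line. Its p-values thus treat pools of both lines of a genotype as separate replicates and mix the spread of lines and pools. The tests between lines had 1 mean per sex and line, and their p-values measure the spread between pools.

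Counts on the mitochondrial genome came almost wholly from mRNAs and rRNAs. Over the 56 libraries the 13 mRNA genes held 77.4% of mitochondrial counts, the rRNA genes 22.6% and the 22 tRNA genes 0.00578%. CPM below are counts relative to the total of a library after TMM scaling. The level per length, in CPM per kilobase, spanned over 3 orders of magnitude among the mRNAs. CoIII, a core subunit of complex IV, had the highest median over 54 libraries (7685 CPM per kb). It was followed by ND1 of complex I (4296), CoI, the catalytic subunit of complex IV (3061), and lrRNA, the large ribosomal RNA (2278). Cyt-b, the one mitochondrial subunit of complex III, had 1412 CPM per kb, ATPase6, part of the proton channel of ATP synthase, 1091, ND5 1018 and CoII, which carries electrons into complex IV, 993. The lower ranks were srRNA, the small ribosomal RNA (523), ND4 (242), ND3 (38.1), ND2 (9.10), ND4L (1.74), ND6 (1.35) and ATPase8 (1.05). Neighbours in this order had overlapping interquartile ranges, apart from ND4 above ND3 and ND3 above ND2. The interquartile range of srRNA ran from 100 to 2683 CPM per kb.

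**Figure D1:**
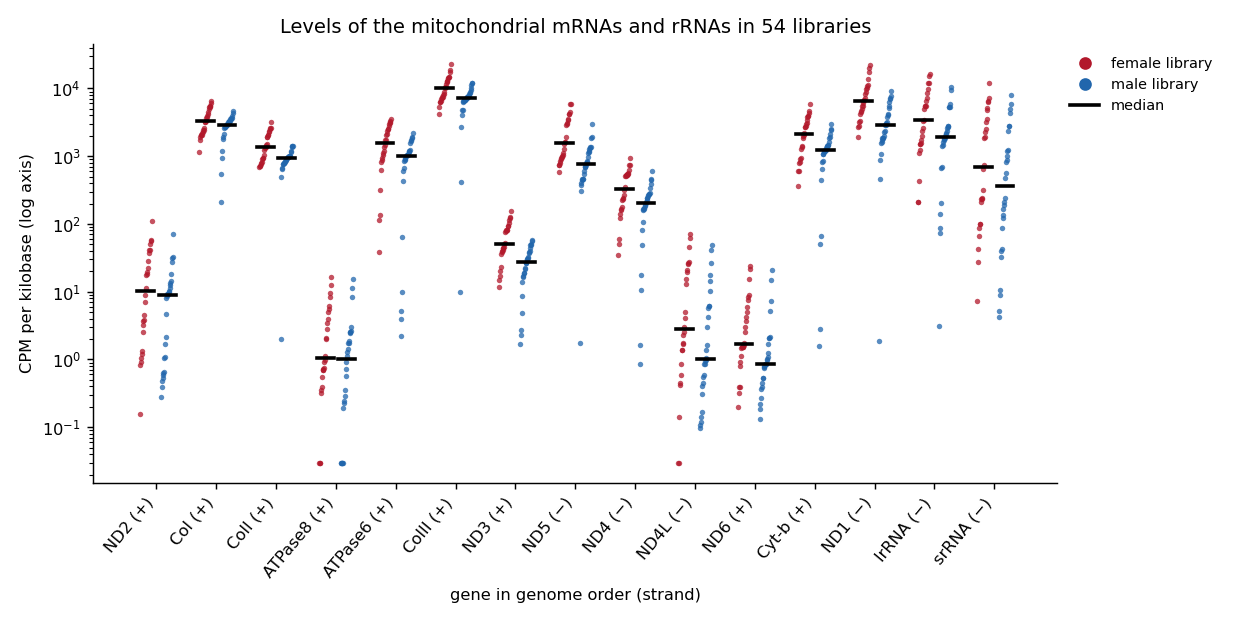
Level of each mitochondrial mRNA and rRNA gene as TMM-scaled CPM per kilobase on a log axis, 1 point per library (26 female and 28 male), with libraries at 0 counts drawn at the lower edge. CoIII, ND1 and CoI lead with medians of 7685, 4296 and 3061 CPM per kb, and ND2, ND4L, ND6 and ATPase8 lie at medians of 9.10 or less.

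The 4 genes of lowest level per length were not all short. ATPase8 spans 162 bases (positions 3907 to 4068) and shares 7 bases with ATPase6 (4062 to 4736), and ND4L (9545 to 9835, 291 bases, minus strand) abuts ND4 (8204 to 9544, minus strand). ND6 (9971 to 10495) is 525 bases long and ND2 (240 to 1265) 1026 bases. The authors did not count fragments that touch 2 genes, so transcripts that cover neighbours are undercounted at such borders, and the levels of ATPase8 and ND4L are uncertain for that reason. The other coding genes lie at 1474 to 3009 (CoI), 3083 to 3767 (CoII), 4736 to 5524 (CoIII), 5608 to 5961 (ND3) and 10499 to 11635 (Cyt-b) on the plus strand, and at 6409 to 8125 (ND5) and 11721 to 12659 (ND1) on the minus strand. Both rRNAs, lrRNA (12734 to 14058) and srRNA (14131 to 14916), are on the minus strand. Counting did not use strand, so antisense transcripts cannot be told apart from sense ones.

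The tRNA genes, 61 to 73 bases long, gathered 6 to 204 counts per library in all (median 30), with the most in J2_S52, which the study left out. Libraries of this kind capture mature tRNAs poorly, and these counts are not a measure of tRNA levels. Of the 22 genes, 5 passed the filter on low counts: tRNA:Ala-TGC (mean 9.63 counts), tRNA:Leu-TAA (5.84), tRNA:Gln-TTG (5.48), tRNA:Gly-TCC (5.38) and tRNA:Lys-CTT (3.66). With the 13 mRNAs and 2 rRNAs this made 20 genes tested, and 17 tRNA genes were not tested.

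The share of counts on the mitochondrial genome was higher in female than in male libraries in most lines. It was 0.908% at the lowest, 3.67% at the median and 11.2% at the highest in 28 female libraries, against 0.0543%, 2.30% and 5.02% in 28 male libraries. The ranges overlapped widely, and the lowest shares of all were male. The female mean exceeded the male mean in 11 of 14 lines, the exceptions being lines 4, 6 and 8. With the rRNAs left out the count was 10 of 14, line 21 being the additional exception, and over the 54 libraries used in the tests it was 12 of 14. In 8 lines both female libraries were above both male libraries, in 5 the sexes overlapped, and in line 4 both females were below both males. Within the first set the medians were 3.87% in 18 female libraries and 2.27% in 21 male libraries. In the second set they were 3.55% in 9 female libraries and 3.00% in 5 male libraries.

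The widest gaps between the sexes were in lines 19 and 5. Line 19 (Obp50b) had 3.80% and 6.27% in females, against 0.292% and 1.17% in males, a ratio of means of 6.90. Line 5 (Obp50cBCD) had 8.14% and 11.2% in females (11.2% in the left-out 55_S45), against 0.0543% and 3.00% in males, a ratio of 6.35. Each of these lines holds one of the 2 male libraries with the lowest shares, 35_S27 (0.292%) and J3_S53 (0.0543%). In line 11 (Obp50a) the females had 5.37% and 5.70%, against 2.25% and 2.71% in males. The Obp50NegBCD line 26 had 4.76% and 5.80% in females, against 1.90% and 2.34% in males, and Obp50Neg line 30 had 3.95% and 4.91% in females, against 1.87% and 2.27% in males. These 3 lines had female means 2.14 to 2.49 times the male means, and within each sex their libraries lay close together. Line 4 (Obp50b) had 1.80% and 1.96% in females, against 2.39% and 5.02% in males, a ratio of 0.508.

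**Figure D2:**
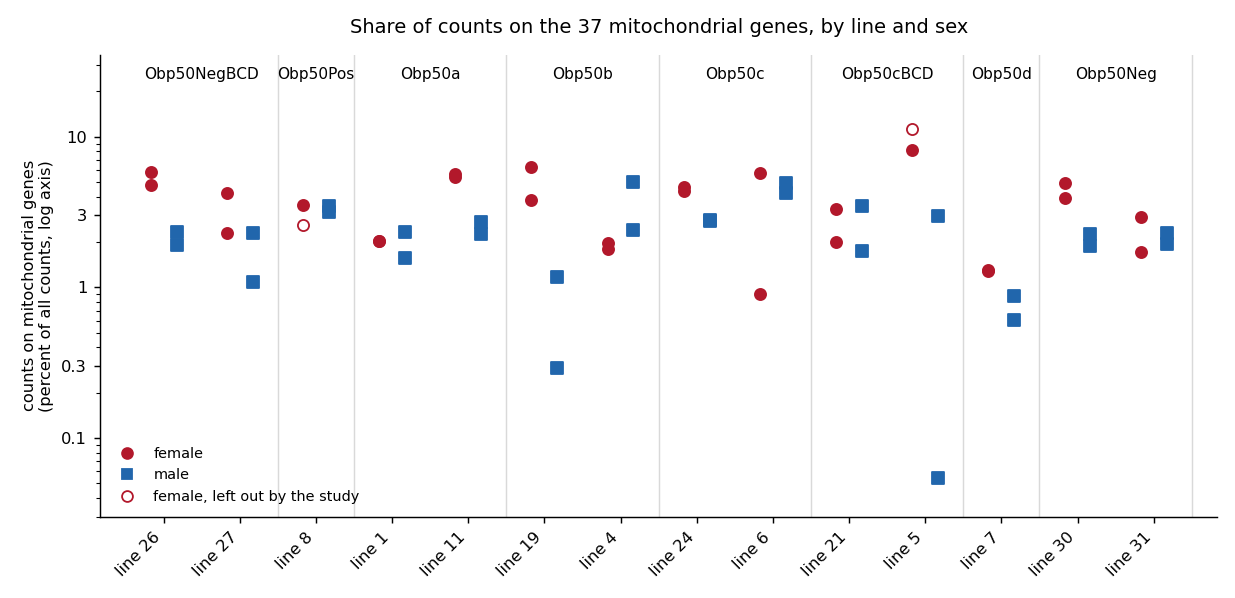
Percent of all counts on the 37 mitochondrial genes, 1 point per library, females beside males within each of 14 lines. Females are above males in most lines, most widely in lines 19 and 5, and below them in line 4 (1.80% and 1.96% against 2.39% and 5.02%).

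By genotype, Obp50d, with 1 line, had the lowest median share in both sexes. Its line 7 had 1.28% and 1.30% in females and 0.604% and 0.880% in males. By line, males of line 19 (Obp50b) had a lower mean (0.729%) than males of line 7 (0.742%). Genotype and line cannot be told apart for Obp50d. The other female medians were 2.88% (Obp50b), 3.08% (Obp50Pos), 3.71% (Obp50a), 4.50% (Obp50c and Obp50NegBCD) and 5.72% (Obp50cBCD). The Obp50Pos and Obp50cBCD medians each include the library that the study left out (2.61% and 11.2%). Among the female libraries used in the tests, Obp50Pos had 3.55% and Obp50cBCD had 1.99%, 3.29% and 8.14%. The middle value of Obp50cBCD is then 3.29%, below the Obp50Neg median of 3.44%. Its place as the highest female median thus rests on the left-out library. The other male medians ran from 1.78% (Obp50b) through 2.10% (Obp50NegBCD), 2.29% (Obp50a), 2.37% (Obp50cBCD) and 3.32% (Obp50Pos) to 3.51% (Obp50c). Obp50Neg had a median of 3.44% in females (1.73% to 4.91%) and 2.10% in males (1.87% to 2.31%), so that in each sex both Obp50d libraries were below all 4 Obp50Neg libraries.

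The mRNAs of the 4 machines divided mitochondrial counts unequally. Complex IV genes took a median of 41.5% of mitochondrial counts in females (25.9% to 61.5%) and 51.5% in males (29.7% to 93.1%). The 7 complex I genes took 31.9% in females (14.9% to 43.3%) and 23.9% in males (3.21% to 41.3%). Complex III (Cyt-b) took 6.41% in females and 6.25% in males, ATP synthase 2.94% in females and 3.21% in males, and the rRNAs 13.1% in both. CoIII held the most counts in 35 libraries (15 female, 20 male) and lrRNA in 13 (8 female, 5 male). ND1 led in 5 libraries, all female, and CoI in 3, all male. Genes read from the minus strand (ND1, ND4, ND4L and ND5) made up a median of 38.2% of mitochondrial mRNA counts in 28 female libraries (23.6% in 41_S13 to 48.9% in 84_S36), against 28.2% in 28 male libraries (2.06% in J3_S53 to 42.9% in 35_S27).

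Between the sexes, over all genotypes, 13 of the 20 tested mitochondrial genes were higher in females and 0 were higher in males (edgeR's quasi-likelihood test, false discovery rate under 0.05 over 15675 genes, with 13 of 20 also at an unadjusted p under 0.05). Of all genes tested 83% were called in either direction and 39.4% were higher in females. The median log2 difference of females over males was 1.04 over the 20 mitochondrial genes and -0.10 over all genes. Without tRNA:Gly-TCC, whose estimate rests on a group at 0 counts, it was 0.92, the value of ND4. Among the called genes were 4 of 7 in complex I, the complex III gene, 2 of 3 in complex IV, 1 of 2 in ATP synthase, 1 of 2 rRNAs and 4 of 5 tRNA genes. Flight muscle markers were lower in female libraries (0.428% to 0.766%, against 1.01% to 1.89% in males). Their part in the result was not tested.

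In complex I, 4 of 7 genes passed. ND3, a small core subunit, had 4.21 CPM at the lowest, 18.2 at the median and 54 at the highest in 26 females, against 0.604, 9.57 and 20.3 CPM in 28 males. The ranges overlapped, with the upper part of the female range above every male. The difference was 2.52-fold (log2 1.33, SE 0.25, adjusted p = 6.83e-06 by edgeR). ND1, which helps form the quinone site, had 1793, 6180 and 21120 CPM (lowest, median and highest) in females, against 1.77, 2680 and 8567 CPM in males, a difference of 2.39-fold (log2 1.26, SE 0.33, adjusted p = 0.000653 by edgeR). ND5, a proton-pumping subunit, had 1015, 2670 and 10139 CPM in females, against 3.00, 1323 and 5088 CPM in males (log2 1.17, SE 0.33, adjusted p = 0.00146). In both genes the lowest male, J3_S53, lay far below the rest, and the calls of ND1, ND3 and ND5 were kept without it. ND4, also proton-pumping, had 46.4, 447 and 1272 CPM in females, against 1.15, 276 and 815 CPM in males (log2 0.92, SE 0.35, adjusted p = 0.0157). The remaining complex I genes did not pass the test. ND2 (log2 0.47, adjusted p = 0.392), ND4L (0.46, 0.680) and ND6 (0.92, 0.0752) had female medians of 10.4, 0.814 and 0.878 CPM, against 9.15, 0.296 and 0.446 CPM in males. ND6 passed without 24_S41, 59_S21, 61_S22 or 70_S38, each left out alone.

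Cyt-b and ATPase6 differed by similar amounts. Cyt-b had 413, 2392 and 6719 CPM (lowest, median and highest) in females, against 1.82, 1393 and 3389 CPM in males (log2 1.20, SE 0.37, adjusted p = 0.00301 by edgeR). ATPase6 had 25.6, 1069 and 2368 CPM in females, against 1.50, 686 and 1466 CPM in males (log2 1.20, SE 0.39, adjusted p = 0.00501). In each gene the highest females were above every male while the ranges overlapped. ATPase8, the accessory subunit encoded beside ATPase6, was barely counted, with medians of 0.169 CPM in females and 0.164 CPM in males (log2 0.07, adjusted p = 0.831). Its estimate had the other sign in 8 of the other fits, among them that with RLE scaling (-0.10). With 1 library left out it reached -0.26 at the lowest.

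Complex IV genes showed the smallest differences among the well-counted mRNAs. CoI had 1754, 5003 and 10064 CPM in females, against 327, 4469 and 7058 CPM in males, and did not pass the test (log2 0.36, adjusted p = 0.105). CoII had 473, 936 and 2157 CPM in females, against 1.36, 652 and 967 CPM in males (log2 0.66, SE 0.25, adjusted p = 0.0164). CoIII had 3349, 8053 and 18155 CPM in females, against 7.72, 5774 and 9557 CPM in males (log2 0.63, SE 0.28, adjusted p = 0.0384). For all 3 genes the sexes overlapped over most of the male range. The call of CoIII was lost without any 1 of 5_S5, 34_S26, 58_S48, 63_S24, 65_S34, 67_S36, 69_S37, 70_S38 or 83_S35, and CoI was called without J3_S53.

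The large rRNA had 279, 4508 and 21382 CPM in females, against 4.18, 2552 and 13774 CPM in males (log2 0.89, SE 0.40, adjusted p = 0.0381), and lost its call without 5_S5, 34_S26, 58_S48, 64_S44, 65_S34 or 69_S37, each left out alone. The small rRNA had 5.70, 547 and 9567 CPM in females, against 3.27, 284 and 6279 CPM in males, and did not pass the test (log2 0.55, adjusted p = 0.353). Libraries were depleted of ribosomal RNA, and the sources used here do not give whether the probes include mitochondrial rRNA. Of the tRNA genes, tRNA:Ala-TGC (log2 1.57, SE 0.41, adjusted p = 0.000529), tRNA:Leu-TAA (1.89, 0.52, 0.000960), tRNA:Lys-CTT (1.52, 0.48, 0.00336) and tRNA:Gln-TTG (1.52, 0.65, 0.0294) were higher in females. These rest on few counts. The calls of tRNA:Leu-TAA and tRNA:Lys-CTT were lost without 67_S36, and that of tRNA:Gln-TTG without 5_S5, 26_S43, 34_S26, 63_S24, 64_S44, 66_S35 or 69_S37. For tRNA:Gly-TCC at least 1 group had 0 counts in all libraries, and no fold is given.

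**Figure D3:**
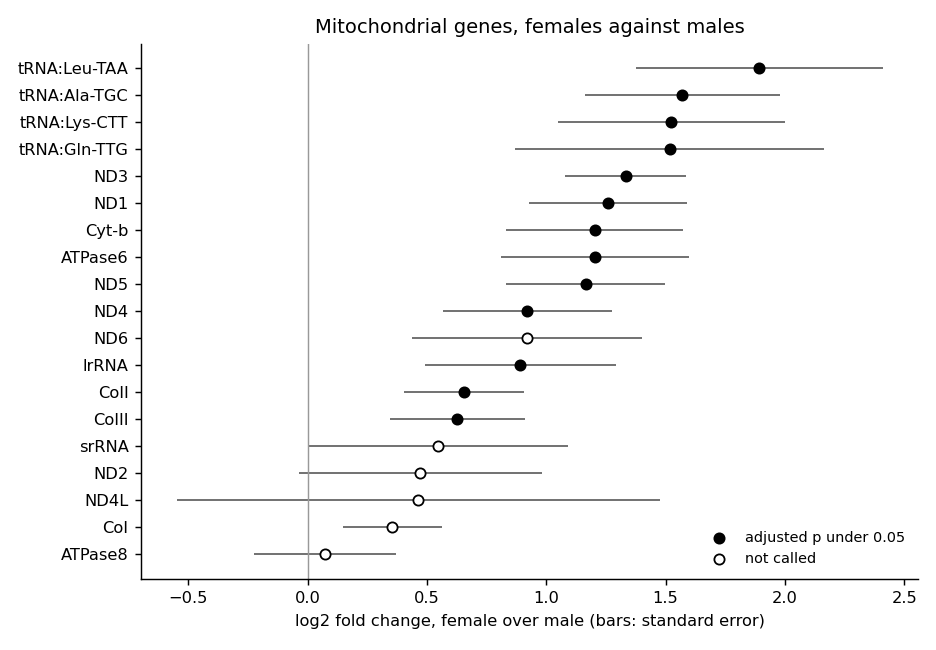
Log2 difference of females over males for the tested mitochondrial genes, with bars of 1 SE from edgeR, filled where the false discovery rate was under 0.05. All estimates lie above 0 in the main fit, with ND3 at 1.33, ND1 at 1.26 and CoI at 0.36. Among the other fits the estimate of ATPase8 (0.07 here) was below 0 in 8 and that of ND4L in 1.

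The scaling of the libraries bears on these calls. With RLE in place of TMM the median log2 difference of all genes moved to -0.30, and 8 of 20 mitochondrial genes were called, CoIII (0.43), CoII (0.46), ND4, lrRNA and tRNA:Gln-TTG having lost their calls. A mixed model of the study's kind called 6. It had an added random term for sex within line, so that lines are the replicates. Within the first set 11 were called, with the set as a covariate 11, and without J3_S53 and 35_S27 13. Without the 6 males with female markers, left out after seeing the data, 17 were called, and the differences grew for Cyt-b (2.31), ATPase6 (2.28), ND4 (1.94), srRNA (1.69), lrRNA (1.61), CoIII (1.12) and CoI (0.63, adjusted p = 0.00843 by edgeR). That fit keeps 35_S27 as the only Obp50b male. ND1, ND3, ND5, Cyt-b, ATPase6 and tRNA:Ala-TGC kept their calls in all 11 other edgeR, limma and DESeq2 fits and with each of 53 libraries left out in turn.

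Nuclear genes that maintain and express the mitochondrial genome were also mostly higher in females, while nuclear subunits of the respiratory chain were not. Both lists were chosen with earlier results of these data known. Of 28 genes for replication, transcription, RNA processing and translation in the organelle, 25 were tested, 24 were higher in females and 1 in males (median log2 1.15), against 39.4% higher in females over all genes. The helicase of mitochondrial DNA, mtDNA-helicase, had 21.1 ± 3.72 CPM in females and 2.82 ± 0.976 CPM in males (SD, n = 26 and 28, log2 2.94). The single-strand binding protein mtSSB (2.52), the tRNA 3′-end nuclease RNaseZ (2.12) and mldr, a subunit of RNase P (1.98), followed. TFAM, which packages the DNA, was higher in females by 1.70 on the log2 scale and tam, the polymerase subunit that copies it, by 1.62, while the mitochondrial RNA polymerase mtRNApol differed by 0.33. The exception was the elongation factor mEFTs (-0.81). Of 26 nuclear respiratory chain genes 7 were higher in females, 10 were higher in males and 9 were not called (median log2 -0.02). Of these genes SdhA (-0.69), UQCR-Q (-0.62) and SdhD (-0.61) were higher in males, and COX5B (0.64) was higher in females. Female pools contain ovaries and male pools testes, and the part of these organs in the differences was not tested. Among genotypes, 18 of the 26 respiratory chain genes and 5 of the 25 expression genes differed in females (24.6% of all genes), and 4 and 0 in males (2.98% of all genes). Over all genes these calls depended on the fit: 3858 in females by edgeR, 445 with counts summed per line and 47 in the mixed model. The counts for both lists are from the edgeR fit, which has no term for line.

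Among genotypes, 4 of the 20 genes differed in females (joint edgeR test over 8 genotypes), against 24.6% of all genes, which is no higher a share than over all genes. A further 3 were at an unadjusted p under 0.05, making 7. The 4 were srRNA (adjusted p = 0.0171), tRNA:Ala-TGC (0.0209), ND2 (0.0335) and ND4L (0.0446). The small rRNA had 21.2 and 33.1 CPM in Obp50d, 51.5 to 187.6 CPM in Obp50b and 186 to 584 CPM in Obp50a females. It had 185 CPM in the Obp50Pos library, 5.70 to 5741 CPM in Obp50c, 1515 to 9567 CPM in 3 Obp50cBCD libraries and 166.9 to 4957 CPM in 4 Obp50NegBCD libraries, against 78.5, 1455, 2538 and 2820 CPM in Obp50Neg. Obp50d was below all Obp50Neg libraries, while the other genotypes overlapped with them. The spread within Obp50c was about as wide as that over all genotypes.

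ND2 and ND4L of complex I followed srRNA. ND2 averaged 0.613 ± 0.643 CPM in Obp50d (n = 2), 2.23 ± 1.35 in Obp50b (n = 4) and 57.2 ± 48.6 in Obp50cBCD (n = 3), against 22.9 ± 17.3 CPM in Obp50Neg females (SD, n = 4). ND4L was at 0 and 0.0410 CPM in Obp50d and 11.5 ± 8.09 CPM in Obp50cBCD (SD, n = 3), against 4.30 ± 3.19 CPM in Obp50Neg (SD, n = 4). Over 54 libraries the ranks of ND2 and ND4L followed those of srRNA (Spearman's rho 0.92 and 0.83), a description over points that share library and depth. The call of tRNA:Ala-TGC rests on 1 library, 42_S14 (Obp50c), with 144 counts (8.18 CPM) against 3 to 13 counts in the other 3 female Obp50c libraries, and was lost without it.

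These genotype calls depended on the fit. With counts summed per line 0 of 20 were called, with line as a random block in limma-voom 0, in the mixed model 0 and with DESeq2 7. ND2 lost its call when any 1 of 3_S3, 17_S9, 22_S39, 23_S40, 54_S31, 58_S48, 63_S43, 64_S44 or 67_S36 was left out, and then 2 genes were called. ND4L kept its call in 19 of 53 such fits. Without 63_S24 the number called was 6, and without J3_S53 and 35_S27 together also 6.

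In males 0 of 20 genes differed among genotypes by edgeR (7 at an unadjusted p under 0.05), against 2.98% of all genes, the smallest adjusted p being that of srRNA (0.0979). DESeq2 called 5, limma-voom and the mixed model 0. The 2 libraries of lowest share, 35_S27 and J3_S53, widen the spread in males. Without them, a choice made after seeing the shares, 6 genes were called, against 3.48% of all genes: ATPase6 (adjusted p = 0.0116), Cyt-b (0.0180), ND3 (0.0359), srRNA (0.0363), lrRNA (0.0383) and ND4 (0.0409). The 2 libraries were picked by the level of the genes then tested. So the 6 calls cannot be compared fairly with the share over all genes, and no conclusion is drawn from them. The fit without the 6 males with female markers kept 35_S27 as the only Obp50b male, so its calls cannot be told apart from that library. They were ATPase6, Cyt-b, ND3 and ND4. In 35_S27 these stood at 0.218%, 0.233%, 6.31% and 0.417% of the male median. With all males but 35_S27 ATPase6 was called, and srRNA was called without 27_S44 or without 59_S21. No difference of the genotype effects between the sexes was detected: 0 of 20 genes passed the sex by genotype test by edgeR (1 at an unadjusted p under 0.05), against 1.97% of all genes, and DESeq2 and the mixed model also called 0.

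ATPase6, the proton channel subunit, had its lowest group median in Obp50d in each sex, although 35_S27 (Obp50b, 1.50 CPM) and J3_S53 (Obp50cBCD, 2.63 CPM) were lower single males, and 64_S33 (Obp50c, 25.6 CPM) a lower single female. ATPase6 had 3.52 and 6.60 CPM in Obp50d males, against 578, 587, 679 and 695 CPM in Obp50Neg males. In females it had 76.3 and 90.5 CPM in Obp50d, against 560, 816, 973 and 1578 CPM in Obp50Neg. In both sexes the groups did not overlap, and in males the gap exceeded the spread within either group. On the log2 scale the difference was -6.97 in males (SE 1.70, unadjusted p = 0.000175, adjusted p = 0.329) and -3.56 in females (adjusted p = 0.159), and neither passed the test after adjustment. Cyt-b had 58.4 and 75.8 CPM in Obp50d males, against 954 to 1656 CPM in Obp50Neg males (log2 -4.35, unadjusted p = 0.00307). The large rRNA had 115.6 and 185.5 CPM in Obp50d males, against 2141 to 2784 CPM in Obp50Neg males (log2 -4.01), and 284 and 577 CPM in Obp50d females, against 1972 to 9666 CPM in Obp50Neg females (log2 -3.71).

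Complex IV genes of Obp50d were nearer to Obp50Neg than ATPase6 was. CoI had 1463 and 1804 CPM in Obp50d males, against 4272, 4373, 4555 and 4934 CPM in Obp50Neg males (log2 -1.47). In females it had 2663 and 2905 CPM in Obp50d, against 3345, 3997, 5115 and 6405 CPM in Obp50Neg (log2 -0.76). Both Obp50d libraries of each sex were below all those of Obp50Neg. CoII had 447 and 522 CPM in Obp50d males, against 537, 575, 599 and 652 CPM in Obp50Neg males (log2 -0.29). In females it had 484 and 555 CPM, against 648, 703, 908 and 1407 CPM (log2 -0.82). CoIII had 2097 and 3171 CPM in Obp50d males, against 5400 to 6150 CPM in Obp50Neg males (log2 -1.16), and 4222 and 5050 CPM in Obp50d females, against 5102 to 10304 CPM in Obp50Neg females (log2 -0.68). For these genes too Obp50d was the lower group without overlap, by smaller factors than in ATPase6. In CoIII females the nearest libraries were at 5050 and 5102 CPM. How often genes in general lack overlap between so few libraries is not given here, for these genes or for ATPase6. None of these differences from Obp50Neg passed the test after adjustment. The log2 differences of ND1 were -1.02 in males and -1.37 in females, and those of ND5 -0.79 in males and -1.52 in females.

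Over the 7 genotypes set against Obp50Neg in each sex, 0 of 280 tests of a mitochondrial gene passed (25 at an unadjusted p under 0.05), against 0.401% of all such tests, and the smallest adjusted p was 0.141, for srRNA in Obp50d females (log2 -5.99). DESeq2 called 10 of the 280, and leaving out 64_S33 alone gave 1. Since Obp50d is 1 line, the genotype and the line cannot be told apart.

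Lines of 1 genotype also differed. In females 3 of 20 genes differed between the lines of a genotype, against 48% of all genes, and these were tRNA:Gln-TTG (adjusted p = 0.00549), tRNA:Leu-TAA (0.0118) and tRNA:Ala-TGC (0.0258). In males 2 of 20 differed, against 10.3% of all genes, tRNA:Gln-TTG (0.0250) and ND6 (0.0471). The share of members was below that of all genes in females and close to it in males. In Obp50a females tRNA:Gln-TTG had 0 and 0 counts in line 1, against 15 and 37 counts in line 11, and tRNA:Leu-TAA had 0 and 0 counts in line 1, against 10 and 19 in line 11. ND6, a complex I subunit, had 0.276 and 0.403 CPM in line 24 of male Obp50c, against 3.82 and 10.8 CPM in line 6 (log2 -4.43, adjusted p = 0.0237 by edgeR). By edgeR 0 of the 13 mRNAs passed between the Obp50a female lines (1 at an unadjusted p under 0.05, CoI, adjusted p = 0.0943). ND1 had 4740 and 5120 CPM in line 1, against 16514 and 21120 CPM in line 11 (log2 -1.93, SE 1.13, adjusted p = 0.191), a gap wider than that within either line.

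One library decided much of the count in males. Without 57_S47, the library of line 5 paired with J3_S53, 13 of 20 genes differed between lines in males and 7 in females, the rest of line 5 then being J3_S53 alone. Without J3_S53 7 differed in females, without 63_S24 5 and without 42_S14 2, and without 43_S15 0 differed in males. With both 35_S27 and J3_S53 left out 10 differed in females and 0 in males. In females the call of tRNA:Ala-TGC was lost without 42_S14, 63_S24 or 64_S33 and that of tRNA:Leu-TAA without 61_S41 or 62_S42. In males the call of tRNA:Gln-TTG was lost without 27_S44 or 43_S15, and ND6 kept its call in 21 of 53 such fits.

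In single libraries most mitochondrial transcripts were low, but not all to the same degree. In J3_S53, a male Obp50cBCD library of the repeated set with the fewest counts of all (14638498), 7205 of 7953 mitochondrial counts (90.6%) fell on CoI. As a percent of the male median, CoI stood at 7.32%, srRNA at 1.15%, ND4 at 0.806%, ATPase6 at 0.384%, CoII at 0.209%, CoIII at 0.134%, Cyt-b at 0.130% and ND1 at 0.0661%. The barely counted complex I gene ND6 was at 254%, which rests on 25 counts (1.13 CPM, against a male median of 0.446 CPM). Among the abundant mRNAs CoI was thus nearest to its usual level, and ND1, second of all genes in median level per length, was farthest below it. The other libraries of the repeated set had mitochondrial shares of 2.39% (J1_S51, male) and 2.61% (J2_S52, female), and 57_S47, the other male library of line 5, had 3.00%.

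A different set of transcripts was low in 35_S27, a male Obp50b library of the first set. CoII stood at 52.1% and ND5 at 52.8% of the male median, CoI at 18.5% and ND1 at 16%. ATPase6 (0.218%), Cyt-b (0.233%) and ND4 (0.417%) were nearly absent, and lrRNA was at 3.83%. The other male library of line 19, 36_S28, had ATPase6 at 6.40%, srRNA at 9.05%, lrRNA at 10.6% and CoII at 79.3%. It is also among the males with female markers. The female library 64_S33 (Obp50c) had the lowest female share and showed a milder form of this order, with CoII at 67.4% of the female median, CoIII at 41.6%, CoI at 35.1%, Cyt-b at 17.3%, ND4 at 10.4%, ATPase6 at 2.40% and srRNA at 1.04%. The Obp50d males 65_S34 and 66_S35 were alike, with CoII at 68.5% and 80.0% of the male median and ATPase6 at 0.513% and 0.962%. So ATPase6 was at or below 8.47% of its sex's median in these low libraries and in both Obp50d females, while CoII was above 50% in all but J3_S53.

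At the other end, 55_S45, 58_S48, 59_S21 and 61_S22 were high in srRNA and in the mRNAs that are otherwise barely counted, more than in the abundant mRNAs. In 55_S45 the small rRNA reached 3057% of the female median, ND6 3439%, ND4L 2856%, lrRNA 811% and CoI 205%. In 58_S48 ND4L reached 2557%, srRNA 1750% and CoI 168%. In 61_S22 ND4L reached 4073% of the male median, ND6 2430%, srRNA 2208% and CoI 152%. In 59_S21 ND4L, the abutting neighbour of ND4, was at 4802%, ND6 at 1769%, srRNA at 1359% and CoI at 126%. The 2 males among these are also among the 6 with female markers, and the part of those markers in the levels was not tested.

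**Figure D4:**
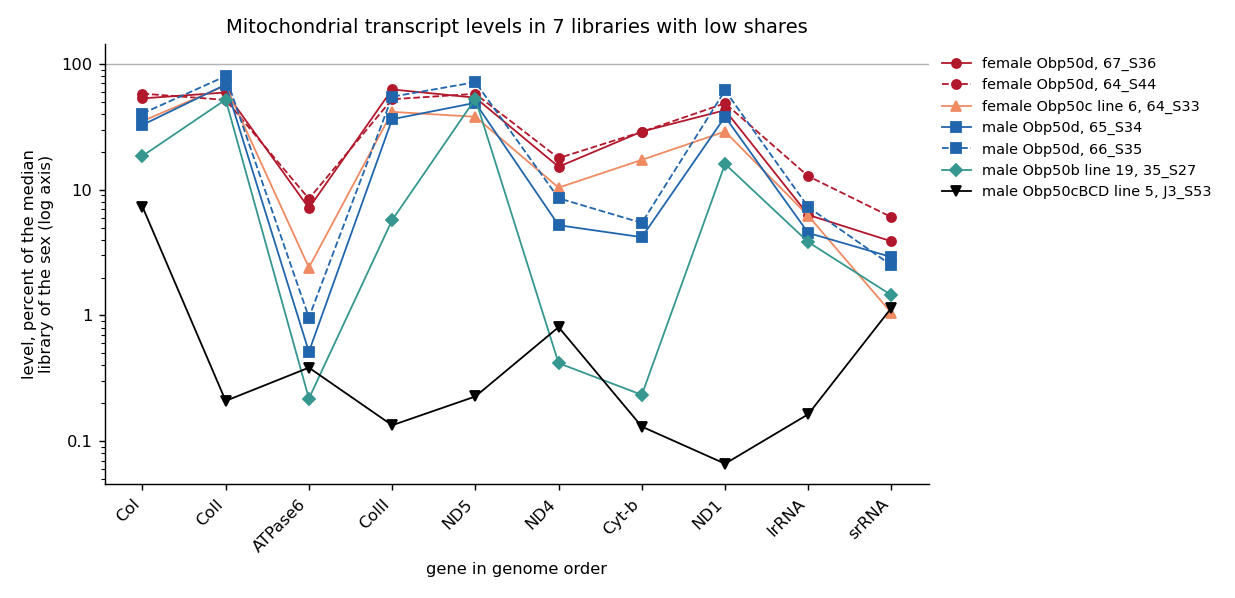
Level of each gene in single low libraries as a percent of the median of its sex, on a log axis. ATPase6 is under 10% in all of the libraries shown, whereas CoII stays above 50% except in J3_S53 (0.209%).

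Pairs of libraries of the same line and sex differed more in each mitochondrial gene shown than in the median nuclear gene. Over 26 pairs the median fold between partners was 1.20 for CoII, 1.21 for CoI and for CoIII, 1.34 for ND1, 1.44 for Cyt-b, 1.54 for ND5, 1.55 for ND3, 1.57 for ND4, 1.59 for ATPase6, 1.60 for lrRNA and 2.80 for srRNA. Over 9393 nuclear genes with at least 10 counts in each of the 54 libraries the median of this value was 1.13 and its 95th percentile 1.31. CoI, CoII and CoIII were below that percentile and the other members shown above it. CoII, the steadiest of the members, was above 80.2% of nuclear genes, ND1 above 96.8% and srRNA above all of them. The small rRNA differed over 2-fold in 15 of 26 pairs and over 4-fold in 10, and reached 1006-fold between 63_S24 and 64_S33, 2 females of Obp50c line 6. For the other 10 genes shown the widest pair was 57_S47 and J3_S53, from 7.90-fold in ND3 and 15-fold in CoI to 3311-fold in ND1. Not all partners came from the same library set. In females of lines 4 and 7 and males of lines 4 and 5 the sets differed, and 57_S47 (second set) and J3_S53 (repeated set) are among these pairs.

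**Figure D5:**
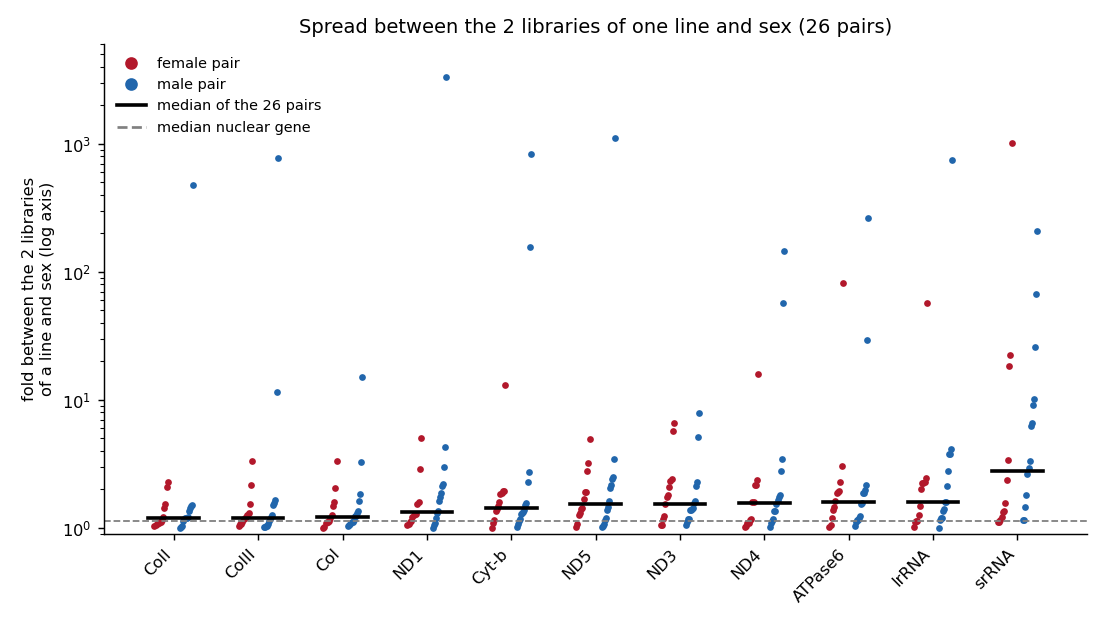
Fold between the 2 libraries of the same line and sex for 11 mitochondrial genes. There is 1 point for each of 26 pairs, on a log axis, with the nuclear median (1.13) as a dashed line. Complex IV genes have the smallest medians (1.20 and 1.21) and srRNA the largest (2.80).

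Over the 54 libraries Spearman's rho ranged over the 55 pairs of 11 genes from 0.49 (ND1 and srRNA) to 0.97 (ATPase6 and ND4). It was 0.95 between ATPase6 and Cyt-b, 0.95 between lrRNA and ND4 and 0.93 between the rRNAs. CoII had 0.95 with ATPase6 and 0.94 with ND4. The values were 0.88 between ND1 and ND5, 0.86 between ND1 and CoIII and 0.58 between ND3 and ND5. ATPase6 and Cyt-b are read from the plus strand and ND4 and both rRNAs from the minus strand. These values describe libraries that share sex, genotype, set and depth, and they carry no test.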

How the data were processed

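Total RNA (RNeasy) from pools of 30 mated flies, sexes apart, was depleted of ribosomal RNA with a Drosophila AnyDeplete kit and amplified for 17 cycles. The authors aligned reads with GSNAP and deposited raw fragment counts per gene from featureCounts 1.6.4 (release 6.13 annotation, fragments up to 1200 bases, no strand, no fragments on several genes or places). The series table was compared with the tables of single libraries, and 0 of 979384 shared cells differed. In all 56 libraries the 37 genes were read from it, and depth ran from 14638498 to 53517693 counts. Genes nonzero in at least 25% of 54 libraries with a median count of at least 2 (15675) were tested with edgeR 4.0.16 (R 4.3.3), TMM scaling, 1 mean per sex and genotype and Benjamini-Hochberg adjustment at 0.05. Lines within a genotype were tested with 1 mean per sex and line. CPM are scaled by TMM, and shares are of unscaled counts. Alternatives used RLE scaling, scaling without mitochondrial genes, no filter, 56 libraries, the library set as covariate and sums per line. Others used limma-voom 3.58.1, DESeq2 1.42.0 and each sex alone. The mixed model (lmerTest 3.1.3) was of the study's kind, with line and sex within line as random terms. The study's own model had no term for sex within line. The procedure was tested on simulated counts of independent libraries, without differences between lines and without outlying libraries. That simulation does not cover the wide spread of the mitochondrial genes within pairs. Figures were drawn with matplotlib 3.10.9. All mRNA and rRNA members were named, with those tRNA genes that passed the filter. The members and the nuclear and marker lists were chosen with earlier results of these data known, and the fits without low males, without males with female markers and within the first set were added after seeing the data.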

Additional observations from a re-analysis of the deposited data

Results flagged for a closer look

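Of 192 combinations of group and measure in 12 groups of 4 libraries, 18 had 1 library far from the other 3, in 9 libraries. For independent, normally distributed values the rule flags about 1 in 20 groups. These groups join pools of different lines, and the genes vary together, so 18 of 192 cannot be set against that rate. All values are in CPM. In Obp50c females 63_S24 was high for ND5 (5060, others 1015 to 1285), ND2 (57.1, others 1.24 to 9.18), ND4L (18.1, others 0.133 to 0.744), ND6 (11.4, others 0.486 to 0.796) and ATPase8 (2.69, others 0.0884 to 0.149), and 64_S33 was low for CoII (631, others 1317 to 1416) and ND4 (46.4, others 673 to 734). In Obp50b males 59_S21 was high for srRNA (3864, others 4.11 to 381), ND4L (14.2, others 0.173 to 1.22), ND6 (7.89, others 0.144 to 0.648) and ATPase8 (2.53, others 0.0470 to 0.419). In Obp50c males 61_S22 was high for lrRNA (12478, others 6949 to 7809) and ATPase8 (1.81, others 0.0366 to 0.282). In Obp50cBCD males J3_S53 was low for CoIII (7.72, others 5752 to 6740) and 27_S44 high for srRNA (4655, others 3.27 to 685). The others were 34_S26 for ND1 in Obp50b females (18576, others 4145 to 6406), 83_S35 for ND6 in Obp50a females (1.58, others 0.770 to 0.846) and 8_S8 for ND3 in Obp50Neg males (14.0, others 5.73 to 6.72).

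Line 4 differed from most other lines in the direction of its sex difference. The higher of its females had 1.96% of counts on the mitochondrial genome, against 2.39% and 5.02% in its males. The difference between lines was not tested.

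The female Obp50cBCD library 55_S45, which the study left out, had 11.2% of its counts on the mitochondrial genome, against at most 4.91% in Obp50Neg females.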

How the results depend on the processing

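The sex comparison (13 of 20 genes called) gave 8 with RLE scaling and 6 in the mixed model, and 10 to 17 in its other alternatives. The genotype comparison in females (4) gave 0 with sums per line, 0 with limma-voom, 0 in the mixed model, 1 with females fitted alone, 1 in the first set and 7 with DESeq2. In males (0) it gave 2 with no filter, 5 with DESeq2, 6 without the 2 low males and 4 without the males with female markers. Single genotypes (0) gave 10 with DESeq2 and 2 without the low males, and sex by genotype gave 0 throughout. Lines in females (3) gave 5 with DESeq2 and 10 without the low males. Lines in males (2) gave 1 with RLE scaling, 1 without mitochondrial genes in the scaling, 1 with no filter, 1 with 56 libraries, 4 with DESeq2, 0 without the low males and 0 without the males with female markers. Leaving out 1 library at a time gave 10 to 14 for sex, 2 to 6 for genotype in females, 0 to 1 in males, 0 to 1 for single genotypes, 2 to 7 for lines in females and 0 to 13 in males. Over all genes, genotype calls in females (3858) numbered 445 with sums per line, 217 with females alone, 257 with limma-voom, 6387 with DESeq2 and 47 in the mixed model. In males (467) they numbered 1 with sums per line, 2569 with males alone, 37 with limma-voom, 1945 with DESeq2, 176 with the set as covariate and 906 in the first set. The causes were not tested. No paired analysis by replicate number was possible because the labels give none that groups share. Lines hold both sexes, and the sex comparison gave 13 with line as a random block in limma-voom and 12 with sums per line. Genes with a few counts per library (tRNAs, ATPase8, ND4L, ND6) are limited by depth.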
